A study of Mus musculus with 16 samples.

Results

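The lungs compared here came from mice given BIBO3304, either with or without pancreatic ductal adenocarcinoma (PDAC) cells seeded into the lung. The series is a single-cell RNA sequencing study of whole mouse lung under 3 treatments (vehicle, 6-OHDA or BIBO3304), each with and without PDAC cells. Cells were chosen by the authors' deposited labels of treatment and seeding, which gave 23515 of the 80449 cells and 5 of the 15 samples. BIBO3304 with PDAC cells (BIBO3304-PDAC) had 2 samples, of 5466 and 4737 cells, and BIBO3304 without them (BIBO3304) had 3 samples, of 4145, 3888 and 5279 cells. All 5 samples carried the drug, so what follows compares samples with and without PDAC cells in its presence. Below, the effect of PDAC cells means such a difference. Here it cannot be told apart from a difference in transcripts per cell. The seeding label reads IV or nonIV and was taken as PDAC cells or none. The sources used here give no strain, age, dose or time after seeding. They also do not say whether the numbered samples were separate mice, so a p-value below reflects only how much these samples differ, which may be technical. Vehicle and 6-OHDA samples entered the same statistical fit and are used below only to ask whether the effect of the PDAC cells differed between treatments.

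BIBO3304 blocks NPY1R, through which cells respond to neuropeptide Y. Sympathetic neurons release neuropeptide Y together with noradrenaline, and 6-OHDA is a toxin that destroys their endings. In the lung, alveolar macrophages live in the air spaces, and interstitial macrophages in the tissue around vessels and airways, where the resident cells carry Mrc1, Cd163, Lyve1, Folr2 and complement C1q. Monocytes recruited from blood can become macrophages in the same tissue. Alveolar fibroblasts hold the lipid-rich niche beside alveolar type 2 cells, which make surfactant, while adventitial fibroblasts surround vessels and airways.

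Depth per cell differed between the groups. Medians were 2417 and 1623 transcripts per cell in BIBO3304-PDAC samples 1 and 2, and 2631, 4846.5 and 3534 in BIBO3304 samples 1, 2 and 3. BIBO3304-PDAC sample 2 had the lowest median in 21 of the 22 cell types, and BIBO3304 sample 2 the highest in 15. No barcode combination and no first-round well was shared between samples, and each of the 16 sublibraries held cells of all 5. Each of 21 marker lists for lung cell types was highest in the type the authors had given that name, and the cancer cell list was highest in the cells so named, by 0.45 on the log2 scale over club cells. The cells named cancer cells carried lung transcripts as well, with alveolar macrophage markers at 1340 and 1339 CPM and alveolar type 2 markers at 1245 and 774 CPM beside 1005 and 1225 CPM of the cancer cell list.

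Cancer cells were found in both seeded samples and in none of the 3 others. They were 33 cells in BIBO3304-PDAC sample 1, or 0.604% of all cells (95% exact binomial interval 0.416 to 0.847%), and 73 cells in sample 2, or 1.54% (1.21 to 1.93%). The 3 BIBO3304 samples had 0. A count of 0 allows up to 3 cells, or 0.0724%, 0.0772% and 0.0568%, and the exact 95% upper limits were 0.0890%, 0.0948% and 0.0699%, for counting error alone. BIBO3304-PDAC sample 2 thus held more cancer cells and also the fewest transcripts per cell, and these properties cannot be told apart in what follows.

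Macrophages and dendritic cells took larger shares of the seeded lungs, and capillary endothelial cells smaller ones. Alveolar macrophages were 31.3% of cells in each of the 2 BIBO3304-PDAC samples, against 19.9%, 17.5% and 16.1% in BIBO3304 samples 1, 2 and 3. The groups did not overlap, and the log2 fold change was 0.81 ± 0.19 (SE, edgeR quasi-likelihood test on cell numbers, p adjusted over 22 types = 0.00607). That call was kept when each of the 5 samples was left out in turn. Interstitial macrophages were 3.92% and 9.58% with PDAC cells and 2.44%, 1.57% and 2.42% without, a log2 change of 1.65 ± 0.38 (adjusted p = 0.00607). Dendritic cells, which present antigen to T cells, were 3.38% and 3.95% against 1.71%, 2.26% and 1.69% (0.96 ± 0.27, adjusted p = 0.0139).

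General capillary cells, the endothelial cells with stem-like repair capacity, were 9.31% and 6.78% with PDAC cells and 14.7%, 17.4% and 17.1% without (log2 change -1.03 ± 0.33, adjusted p = 0.0220). Aerocytes, the capillary cells of gas exchange, were 2.12% and 1.14% against 3.38%, 3.24% and 3.86% (-1.09 ± 0.34, adjusted p = 0.0204). Alveolar type 1 cells had a log2 change of -1.99 ± 0.59 (adjusted p = 0.0174), but the seeded samples held only 8 and 2 of them. Cancer cells were the seventh type past the threshold of 0.05, and 9 types passed it before adjustment. Neutrophils were 0.604% and 1.41% against 2.10%, 1.59% and 2.18% (log2 change -0.97 ± 0.37, adjusted p = 0.0526). Exact permutation of the 5 samples cannot give a two-sided p under 0.1, and it gave 0.1 for each of these types except type 1 cells (0.2). Without BIBO3304-PDAC sample 2 the log2 change of interstitial macrophages was 0.86. Without it the calls for interstitial macrophages and type 1 cells (both adjusted p = 0.170), dendritic cells (0.115), aerocytes (0.186) and general capillary cells (0.170) were lost. The calls for the last 3 of these were also lost without BIBO3304 sample 3. Shares sum to 100%, so a rise in one type lowers the others, and with alveolar macrophages removed from the totals 3 of the other 6 types were still called (not type 1 cells at adjusted p = 0.0526, aerocytes at 0.0599 or general capillary cells at 0.0632). With TMM scaling of the cell numbers aerocytes (0.131) and general capillary cells (0.160) were not called.

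**Figure D1:**
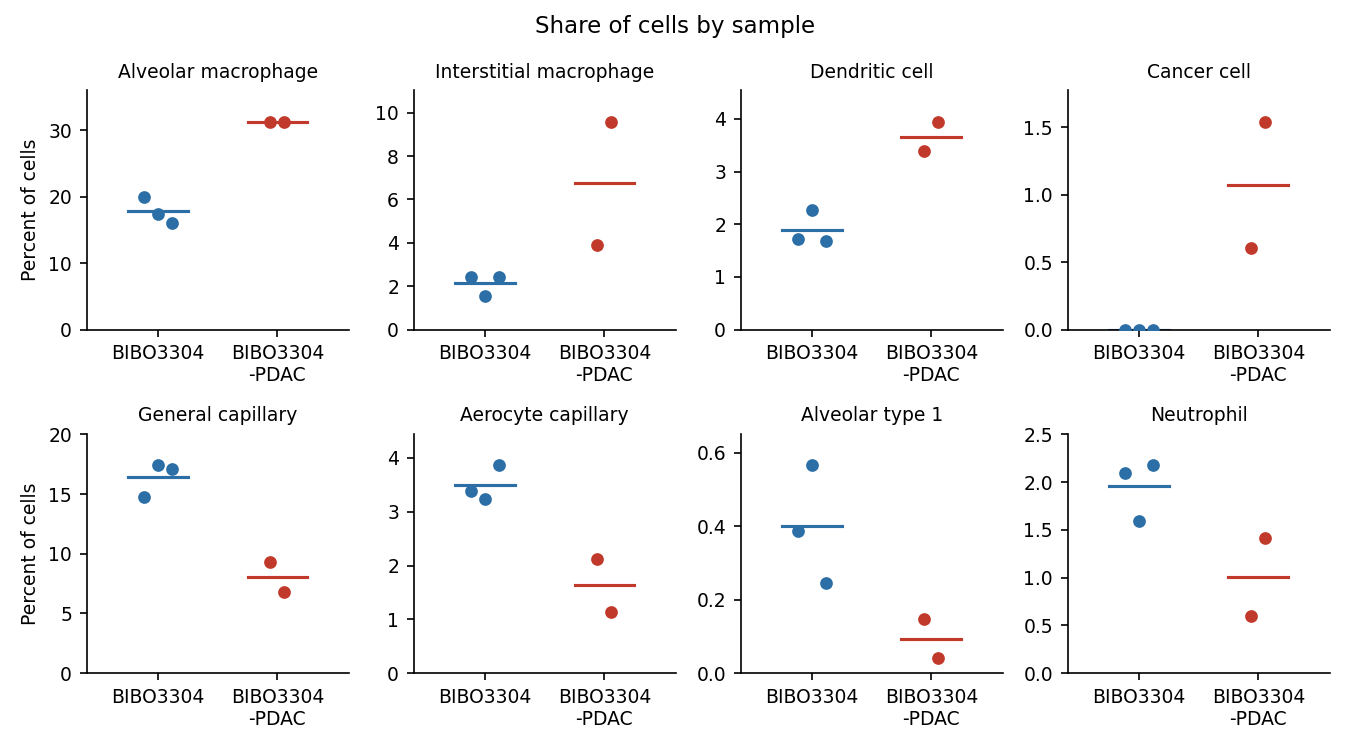
Percent of all cells of a sample (vertical axes, from 0) for 8 cell types; each point is 1 sample and the bar is the group mean, for BIBO3304 (3 samples) and BIBO3304-PDAC (2 samples). Alveolar macrophages are at 31.3% in both seeded samples and at 16.1 to 19.9% in the others. The groups do not overlap in any of the 8 types drawn. Types neither drawn nor called also had no overlap: alveolar type 2, ciliated, club and lymphatic endothelial cells and peribronchial fibroblasts. Lack of overlap alone thus does not set the drawn types apart.

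Genes were compared within 19 cell types by summing the raw counts of each type per sample. Of 113537 gene tests, 4830 passed an adjusted p of 0.05 (4.25%), 2768 higher with PDAC cells (2.44%) and 2062 lower (1.82%). Alveolar fibroblasts had 684 genes higher (5.42% of those tested) and 572 lower (4.53%). Interstitial macrophages had 439 higher (6.81%) and 719 lower (11.2%), and were 1 of 2 types, with dendritic cells (19 higher, 58 lower), in which falls outnumbered rises. Monocytes had 384 higher (5.55%) and 242 lower (3.5%), alveolar type 2 cells 311 (3.7%) and 109 (1.3%), B cells 294 (5.27%) and 81 (1.45%), and general capillary cells 248 (3.04%) and 118 (1.45%). Neutrophils had 116 higher and 113 lower, and adventitial fibroblasts 93 and 24. The other types had between 3 and 54 genes called, except alveolar macrophages. In these, the most numerous cells, 1 of 12818 genes was called by edgeR, with 2516 at an unadjusted p under 0.05 and 201 called by DESeq2.

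How far these calls rest on single samples differed by cell type. Without BIBO3304-PDAC sample 2 the total fell from 4830 to 343, and without BIBO3304 sample 2 to 1685. Calls that held whichever of the 5 samples was left out numbered 197 in interstitial macrophages, 47 in alveolar fibroblasts, 34 in monocytes, 4 in neutrophils and 1 in alveolar type 2 cells. In the remaining types no call met that condition. Below, a gene is called stable when it did. Fold changes are log2 values with standard errors, and levels are transcripts per 1000000 of the cell type in that sample (CPM), given for BIBO3304-PDAC samples 1 and 2 and then BIBO3304 samples 1, 2 and 3. Within a type, fewer cells of one kind and less RNA per cell cannot be told apart. Counts of list members called are to be set beside the share of all genes called in that type, given above.

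**Figure D2:**
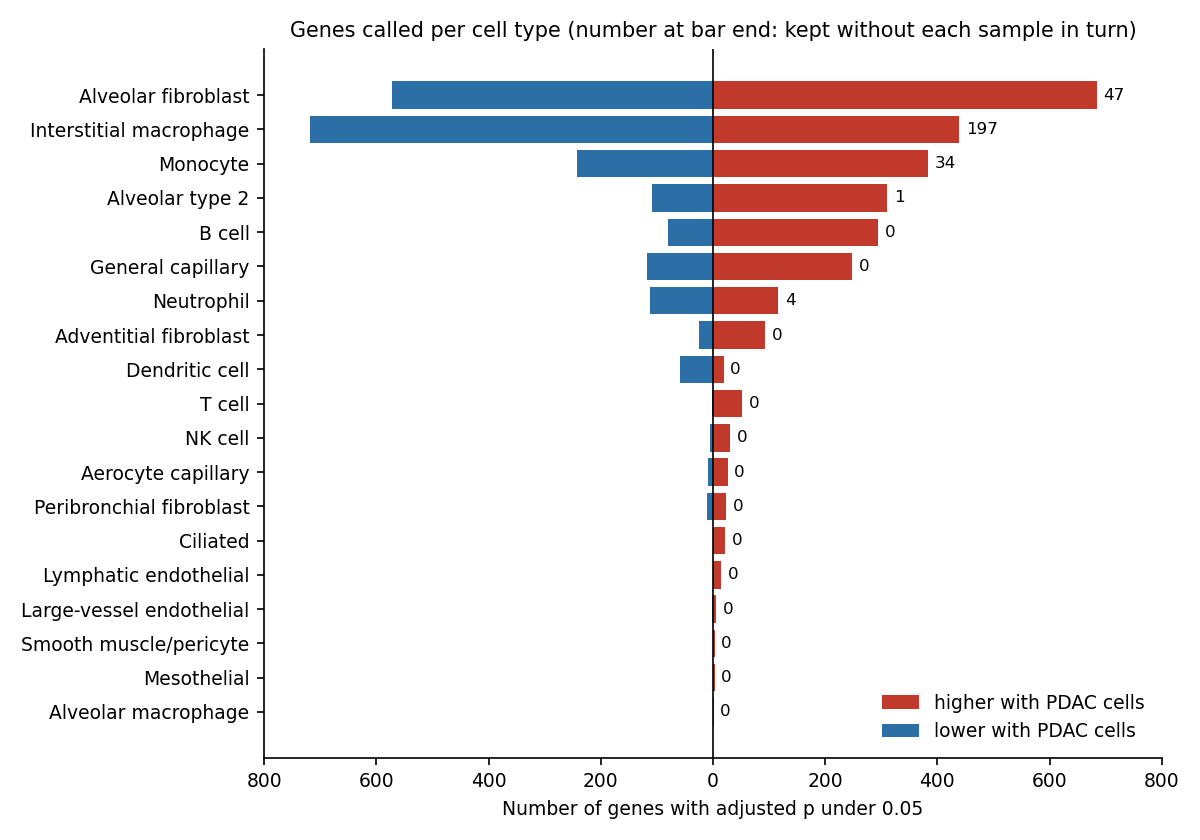
Number of genes past an adjusted p of 0.05 in each of 19 cell types (horizontal axis), higher with PDAC cells to the right and lower to the left; the number at the end of a bar is how many calls were kept without each sample in turn. Alveolar fibroblasts and interstitial macrophages have the longest bars, and interstitial macrophages keep the most calls, 197.

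Interstitial macrophages of seeded lungs had lower levels of the genes that mark the resident tissue cells. They numbered 214 and 454 in the seeded samples and 101, 61 and 128 in the others. Mrc1, the mannose receptor CD206, was at 790 and 602 CPM with PDAC cells and at 2751, 4891 and 2942 CPM without (-2.34 ± 0.32, adjusted p = 7.73e-05). Apoe, a lipid carrier, was at 298 and 172 CPM against 1124, 1352 and 1161 CPM (-2.38 ± 0.33, adjusted p = 7.73e-05). In both genes the 2 seeded samples lay below all 3 others, with a wide gap between the groups. C1qb, a subunit of the complement opsonin C1q, was at 76.2 and 79.3 CPM against 259, 267 and 236 CPM (-1.70 ± 0.27, adjusted p = 0.000255). Of 10 complement genes 6 were lower and 1 higher, and C1qa, C1qc and the anaphylatoxin receptors C3ar1 and C5ar1 were among those that fell. The 1 that rose, Cfb, an alternative pathway protease, was at 38.1 and 32.5 CPM against 0, 5.28 and 4.67 CPM (3.31 ± 0.65, adjusted p = 0.00145).

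Of 16 genes of alternatively activated macrophages, 7 fell and 2 rose (median log2 change -0.995, against 0.03 over all genes of the type). Retnla, a secreted protein of such cells, was at 16.6 and 54.4 CPM against 299, 235 and 266 CPM (-2.81 ± 0.53, adjusted p = 0.00116). Cd163, a haemoglobin scavenger receptor, was at 123 and 39.2 CPM against 360, 325 and 245 CPM (-1.99 ± 0.47, adjusted p = 0.00590), and that call was lost without BIBO3304-PDAC sample 2 (adjusted p = 0.172). Adgre1, which encodes the macrophage antigen F4/80, was at 63.0 and 51.6 CPM against 243, 298 and 243 CPM (-2.20 ± 0.34). Maf, a transcription factor of resident macrophages, fell by 1.64 ± 0.30. Over the whole list of 10 interstitial macrophage markers, 8 were lower, and the summed level was 1366 and 1310 CPM with PDAC cells against 5000, 6668 and 3586 CPM.

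Cells with these markers were also counted at equal depth. Thinning evens out the transcripts per cell and no other property of the libraries. After thinning each cell to 1000 transcripts, 44.7% and 50.1% of interstitial macrophages in the seeded samples had at least 1 transcript of these markers, against 82.6%, 89.7% and 76.5% in the samples without PDAC cells. Cells under that depth were left out, 28 and 68 against 12, 8 and 7, and the shares before thinning were 66.8% and 66.1% against 90.1%, 88.5% and 91.4%. In B cells, which should lack these transcripts, the thinned shares were 16.5% and 27.2% against 10.2%, 3.29% and 6.88%. Monocyte markers in interstitial macrophages summed to 808 and 1268 CPM against 844, 1016 and 813 CPM, and dendritic cell markers to 164 and 182 against 377, 143 and 186 CPM. After thinning, 44.3% and 59.0% of these macrophages had a monocyte marker transcript with PDAC cells, against 44.0%, 28.8% and 35.3% without. Plac8, which marks monocytes, was at 69.6 and 105 CPM against 2.65, 5.28 and 30.4 CPM (2.71 ± 0.49, adjusted p = 0.000733), and Ccr7, a marker of migrating dendritic cells, rose from 13.2, 5.28 and 18.7 CPM to 67.9 and 61.1 CPM (2.33 ± 0.48). Plac8 and Ccr7 were chosen after their values were seen, and the summed levels of the 2 lists they belong to overlapped between the groups. The part of monocytes and dendritic cells in these results was not tested.

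Further single genes fell, though no list covers them all. Tenm4, a transmembrane teneurin, was at 3.31 and 0.955 CPM against 127, 124 and 58.4 CPM (-5.67 ± 0.57, adjusted p = 5.48e-06). The seeded samples gave only 3 of its transcripts against 120, a 55.7-fold lower pooled level with a 95% exact counting interval of 18.6 to 274. Bmp2, a secreted ligand of the TGF-beta family, was at 4.97 and 4.78 CPM against 106, 84.5 and 100.5 CPM (-4.27 ± 0.48, adjusted p = 1.62e-05). Blnk, an adaptor of B cell receptor signalling that macrophages also carry, was at 46.4 and 48.7 CPM against 275, 367 and 280 CPM (-2.68 ± 0.29). All 3 were stable and separated the groups completely. Nrp2, a receptor for semaphorins and VEGF-C, fell by 1.97 ± 0.34, and Col14a1, a fibril-associated collagen, fell by 2.93 ± 0.46. Of 7 collagen genes tested in this type 1 rose (Col3a1) and 1 fell, beside 6.81% higher and 11.2% lower over all its genes. Col14a1 was more abundant in adventitial fibroblasts than in interstitial macrophages, 717 against 35.2 CPM over the 5 samples, so its source within this type was not resolved.

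NF-kB and immediate early genes fell together in these macrophages. Of 21 NF-kB cytokine and feedback genes, 10 were lower and 1 higher, and of 20 immediate early genes 10 were lower, with the same 10 and 0 by DESeq2 and by unadjusted p under 0.05. Tnfaip3, the ubiquitin-editing inhibitor A20, was at 225 and 200 CPM against 714, 660 and 498 CPM (-1.56 ± 0.24, adjusted p = 0.000231). Birc3, an apoptosis inhibitor induced by NF-kB, was at 290 and 274 CPM against 931, 1249 and 867 CPM (-1.85 ± 0.24, adjusted p = 6.07e-05). Among the immediate early genes, the stress transcription factor Atf3 was at 224 and 238 CPM against 574, 705 and 608 CPM (-1.44 ± 0.24). Dusp1, a phosphatase that ends MAP kinase signalling, was at 174 and 125 CPM against 376, 668 and 362 CPM (-1.66 ± 0.29). Fos, Jun, Egr1 and Il6 were also among the genes that fell. In most other types the immediate early list went the other way. Over all 19 types 30 of 356 tests were higher (8.43%) and 14 lower (3.93%), against 2.44% and 1.82% of all gene tests. Dendritic cells went the same way as interstitial macrophages, with 1 of 20 higher and 8 lower at an unadjusted p under 0.05 (0 and 4 by DESeq2). Neutrophils (3 and 3) and general capillary cells (5 and 5) had as many higher as lower before adjustment.

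Interferon-gamma response genes moved up in the same cells, 11 of 17 higher and 1 lower (median 1.83). Cd274, the checkpoint ligand PD-L1, was at 126 and 148 CPM against 34.4, 31.7 and 49.1 CPM (1.83 ± 0.30, adjusted p = 0.000380). Irf8, a transcription factor of the monocyte and dendritic cell lineages, was at 111 and 111 CPM against 21.2, 47.5 and 37.4 CPM (1.64 ± 0.31, adjusted p = 0.00119). Both were stable. The chemokines Cxcl9 and Cxcl10, which draw CXCR3-bearing lymphocytes, rose by 1.89 ± 0.62 and 1.56 ± 0.36. Both calls were lost without BIBO3304-PDAC sample 2 (adjusted p = 0.149 and 0.147), and Cxcl9 also without BIBO3304-PDAC sample 1 (0.130) or BIBO3304 samples 1 (0.137) or 2 (0.143). The guanylate-binding proteins that rose with them (Gbp2, Gbp2b, Gbp4, Gbp8 and Gbp9) form a family of closely similar genes, so their separate counts are uncertain.

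MHC class II genes, which present peptides to CD4 T cells, included 4 that fell in interstitial macrophages, and others that rose in 12 other types. Cd74, the invariant chain, was at 3333 and 2666 CPM against 5794, 6293 and 5075 CPM (-0.93 ± 0.27, adjusted p = 0.0229), and H2-Aa, H2-Eb1 and H2-Ob fell too, 4 of 9 in all. The Cd74 call was lost without BIBO3304-PDAC sample 2 (adjusted p = 0.238), BIBO3304-PDAC sample 1 (0.0623) or BIBO3304 sample 2 (0.0694). Over all 19 types, 30 of 101 class II tests were higher (29.7%) and these 4 lower (3.96%), against 2.44% and 1.82% of all gene tests. Cd74 itself rose in 11 types. In dendritic cells none of 9 was called by edgeR, but 5 were lower at an unadjusted p under 0.05 and 4 were lower by DESeq2, and in B cells 2 of 9 were lower at an unadjusted p under 0.05. In neutrophils Cd74 was at 1484 and 1376 CPM against 399, 469 and 472 CPM (1.67 ± 0.30, adjusted p = 0.00387, stable). In T cells it was at 290.5 and 441 CPM against 20.8, 36.2 and 81.7 CPM (3.04 ± 0.51), and in lymphatic endothelial cells at 311 and 782 CPM against 22.4, 20.8 and 76.0 CPM (3.54 ± 0.57). The last 2 calls were lost without BIBO3304-PDAC sample 2 (adjusted p = 0.308 and 0.136), and the T cell call also without BIBO3304 sample 1 (0.0639) or 2 (0.0805). Interstitial macrophages held Cd74 at 3875 CPM over the 5 samples, far above T and lymphatic cells.

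Single genes that rose in interstitial macrophages included a matrix protease, a growth factor and 2 enzymes. Mmp14, a membrane-bound matrix protease, was at 123 and 115 CPM against 23.8, 18.5 and 14.02 CPM (2.66 ± 0.38, adjusted p = 0.000138). Vegfa, the main endothelial growth factor, was at 197 and 163 CPM against 29.1, 47.5 and 56.1 CPM (2.01 ± 0.37, adjusted p = 0.00101). Vegfa was the 1 of 8 VEGF and angiogenesis genes that rose, while 4 fell (Nrp1, Nrp2, Kitl and Notch1). Ass1, which makes argininosuccinate for arginine synthesis, was at 113 and 107 CPM against 15.9, 5.28 and 7.01 CPM (3.53 ± 0.64). Acp5, the tartrate-resistant acid phosphatase, was at 18.2 and 32.5 CPM against 2.65, 0 and 2.34 CPM (3.82 ± 0.66), which is 45 transcripts against 2 and a pooled ratio of 16.1 (95% exact counting interval 4.22 to 137). Mmp14, Vegfa, Ass1 and Acp5 were stable, and in each the lower seeded sample stood well above the highest of the others. Vcan, a matrix proteoglycan of monocytes, rose by 4.13 ± 1.05 (54 transcripts against 2, ratio 19.4, counting interval 5.11 to 164), Spp1, a secreted glycoprotein of tumour-associated macrophages, by 2.302 ± 0.492, and Top2a, a mitotic topoisomerase, by 3.40 ± 0.84 (33 against 2, ratio 11.8, 3.03 to 102). Without BIBO3304-PDAC sample 2 these last 3 were no longer called (adjusted p = 0.0699, 0.0786 and 0.109). Cancer cells carried Spp1 at 391 CPM and Top2a at 202 CPM.

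Other lists in interstitial macrophages gave smaller counts or mixed directions. Over all genes of this type 6.81% were higher and 11.2% lower. Of 9 immune checkpoint genes 4 rose: Cd274, Pdcd1lg2 (the second PD-1 ligand, log2 change 3.14), Nt5e (CD73, which makes adenosine, 3.31) and Havcr2 (TIM-3, 1.19). Of 14 lipid-associated macrophage genes 2 rose (Spp1 and Lgals3) and 2 fell (Apoe and Ctsb). Among 14 hypoxia and glycolysis genes 3 were higher and 3 lower, and of 11 TGF-beta targets 1 was higher and 4 lower. The monocyte attractants Ccl2 and Ccl7 were the 2 of 12 chemokine genes that fell, with log2 changes of -0.78 and -1.37. Oxidative phosphorylation genes were higher in 14 of 32 cases and ribosomal protein genes in 20 of 73.

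**Figure D3:**
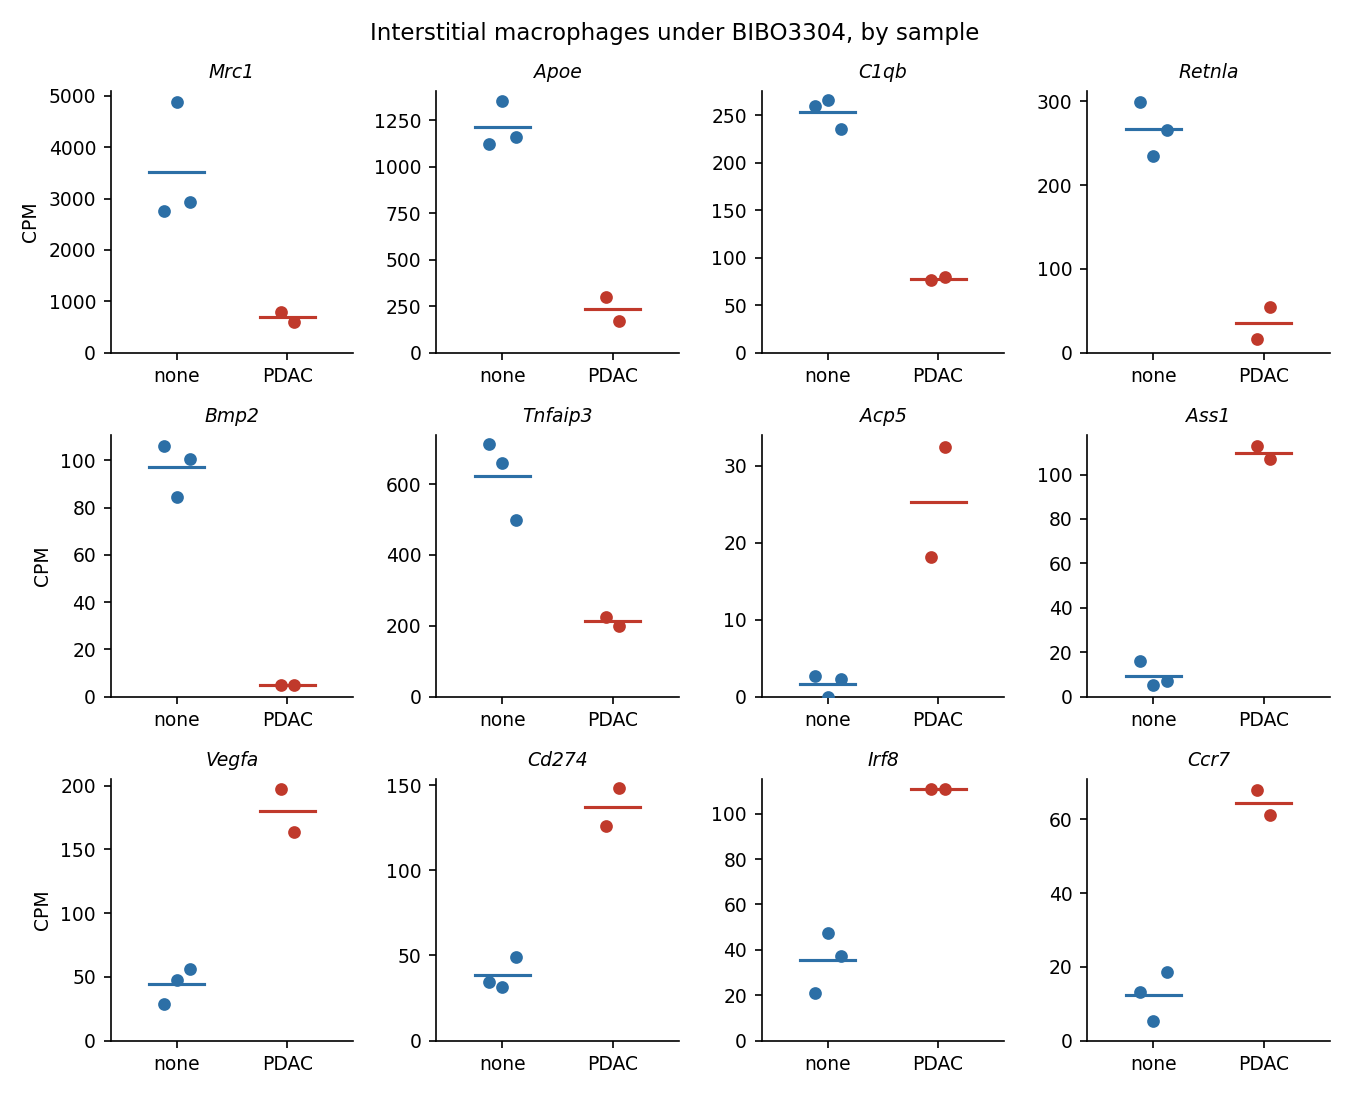
Level of 12 genes in interstitial macrophages (CPM, vertical axes from 0) in each sample without (none) and with PDAC cells; points are samples and bars are group means. Mrc1, Apoe, C1qb, Retnla, Bmp2 and Tnfaip3 are lower in both seeded samples than in all 3 others, and Acp5, Ass1, Vegfa, Cd274, Irf8 and Ccr7 are higher in both.

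Alveolar fibroblasts of seeded lungs gained acute phase, chemokine and matrix remodelling genes. Saa3, an acute phase apolipoprotein, was at 58.5 and 125 CPM with PDAC cells and at 2.12, 0.950 and 5.22 CPM without (4.93 ± 0.82, adjusted p = 0.00216). Timp1, an inhibitor of matrix metalloproteinases, was at 30.9 and 71.4 CPM against 7.06, 6.02 and 6.17 CPM (2.89 ± 0.36, adjusted p = 0.000403). Adam12, a metalloproteinase of activated fibroblasts, was at 36.3 and 48.6 CPM against 6.35, 2.38 and 2.85 CPM (3.48 ± 0.34, adjusted p = 5.77e-05). All 3 were stable. The neutrophil chemokine Cxcl1 was at 150.2 and 148 CPM against 61.4, 35.3 and 53.8 CPM (1.58 ± 0.18), and the complement component C4b rose by 1.0 ± 0.15, again with no dependence on 1 sample. Igfbp4, a binding protein of insulin-like growth factors, was at 136 and 160 CPM against 43.1, 23.3 and 30.7 CPM (2.19 ± 0.28).

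By list, 7 of 22 fibroblast activation genes were higher and 7 of 14 monocyte and neutrophil chemokine genes. So were 6 of 13 complement genes and 6 of 9 MHC class II genes, against 5.42% of all genes of the type. Several of these genes were at their highest level in interstitial macrophages (C1qa, C1qc, Ccr2, Ccl2, Cd74 and H2-Aa). The interstitial macrophage markers, whose range was 114 to 281 CPM with PDAC cells and 45.0 to 129 CPM without, moved with them, and their part was not tested. S100a4, a calcium-binding protein found at 156 CPM in interstitial macrophages, was at 21.9 and 65.5 CPM in alveolar fibroblasts against 3.77, 2.69 and 5.38 CPM (3.31 ± 0.46). Chl1, a neural adhesion molecule, rose by 4.08 ± 0.78 and Cxcl10 by 2.12 ± 0.37, but neither was called without BIBO3304-PDAC sample 2 (adjusted p = 0.147 and 0.104).

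Single genes that fell in alveolar fibroblasts included an atypical cadherin, a G protein subunit and a Wnt target. Fat3, the cadherin, was at 284 and 243 CPM against 725, 1089 and 763 CPM (-1.70 ± 0.20, adjusted p = 0.000319). Axin2, a feedback inhibitor and target of Wnt signalling, was at 24.5 and 20.8 CPM against 53.9, 51.5 and 58.6 CPM (-1.23 ± 0.19, adjusted p = 0.00158). Gna14, the alpha subunit, fell by 1.95 ± 0.30, and Gsg1l, which encodes an auxiliary subunit of glutamate receptors, fell by 1.78 ± 0.28. These 4 were stable.

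Of 6 adrenergic receptor genes tested in the same fibroblasts 2 fell, and Npy1r was not called. Over all genes of these fibroblasts 4.53% were lower. Adra1a, an alpha-1 adrenergic receptor, was at 284 and 269 CPM with PDAC cells against 597, 723 and 722 CPM (-1.30 ± 0.21, adjusted p = 0.00184). Adrb3, a beta adrenergic receptor of fat cells and lipid-laden fibroblasts, was at 15.2 and 13.9 CPM against 34.8, 43.1 and 30.9 CPM (-1.29 ± 0.22, adjusted p = 0.00258). The groups were apart in both genes, but without BIBO3304-PDAC sample 2 the calls just missed the threshold (adjusted p = 0.0584 and 0.0520). They were the only 2 calls among 27 tests of adrenergic genes in 11 types, with edgeR and with DESeq2. Npy1r gave 39 and 15 transcripts with PDAC cells and 32, 68 and 41 without over all cells, 143 of these 195 in alveolar fibroblasts, and the Npy gene 2 in total. In those fibroblasts Npy1r was at 7.88 and 10.9 CPM with PDAC cells against 4.71, 8.08 and 5.22 CPM, with overlapping groups (0.55 ± 0.34, adjusted p = 0.310), and this was the only type in which it could be tested. Neither edgeR nor DESeq2 called any of the 39 tests of NPY system genes, of which 3 higher and 5 lower ones had an unadjusted p under 0.05.

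The metallothioneins Mt1 and Mt2, small proteins that bind zinc and copper and respond to metals, glucocorticoids and stress, were higher in alveolar and adventitial fibroblasts. In alveolar fibroblasts Mt2 was at 401 and 412 CPM with PDAC cells against 126, 66.3 and 90.2 CPM (2.12 ± 0.22, adjusted p = 5.77e-05), and Mt1 was at 332 and 258 CPM against 142, 120.3 and 138 CPM (1.154 ± 0.193, adjusted p = 0.00231). Both were stable. In adventitial fibroblasts Mt2 was at 364 and 554 CPM against 142, 133 and 105 CPM (1.85 ± 0.29, adjusted p = 0.00692), a call lost without BIBO3304-PDAC sample 2 (adjusted p = 0.211). Over all types, 7 of 41 tests of the metallothionein list were higher (17.1%) and 3 lower (7.32%), against 2.44% and 1.82% of all gene tests. Of the 3 falls 2 were in interstitial macrophages, where Mt1 fell by 1.19 on the log2 scale, and the third was the zinc importer Slc39a10 in alveolar fibroblasts (-0.97), so that 2 of the 4 genes tested there rose and 1 fell. Angptl4, a lipase inhibitor induced by glucocorticoids and fasting, rose by 1.69 ± 0.28 in adventitial fibroblasts (without BIBO3304-PDAC sample 2, adjusted p = 0.234).

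The positive limb of the circadian clock was lower in the seeded samples in fibroblasts and alveolar type 2 cells. Arntl (Bmal1), the partner of Clock and Npas2, was at 13.9 and 23.2 CPM in adventitial fibroblasts against 85.2, 106 and 124 CPM (-2.54 ± 0.38, adjusted p = 0.00676; without BIBO3304-PDAC sample 2, 0.0659). Nr1d1, the repressor that Arntl drives and that in turn represses Arntl, was at 77.2 and 76.8 CPM in the same cells against 29.1, 40.8 and 15.3 CPM (1.41 ± 0.35, adjusted p = 0.0414). In alveolar fibroblasts Npas2 was at 14.6 and 35.7 CPM against 65.2, 55.6 and 109 CPM (-1.81 ± 0.45, adjusted p = 0.0177), Arntl fell by 1.12 ± 0.34 and Rora by 0.85 ± 0.17. In alveolar type 2 cells Arntl was at 21.6 and 38.8 CPM against 90.5, 77.0 and 71.8 CPM (-1.49 ± 0.37) and Npas2 at 19.1 and 63.1 CPM against 101, 96.1 and 117 CPM (-1.52 ± 0.39). Over all types 9 of 80 tests of clock activators were lower (11.2%) and 3 higher (3.75%), against 1.82% and 2.44% of all gene tests. None of the clock calls was stable. Nr1d1 and Arntl in alveolar fibroblasts and in type 2 cells were lost under 4 of the 5 omissions (adjusted p up to 0.425, 0.317 and 0.220), as was Npas2 in type 2 cells (up to 0.319), Npas2 in alveolar fibroblasts without BIBO3304-PDAC sample 1 (0.222) or 2 (0.0589), and Rora without BIBO3304-PDAC sample 2 (0.147). No source used here gives the hour at which each lung was taken.

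**Figure D4:**
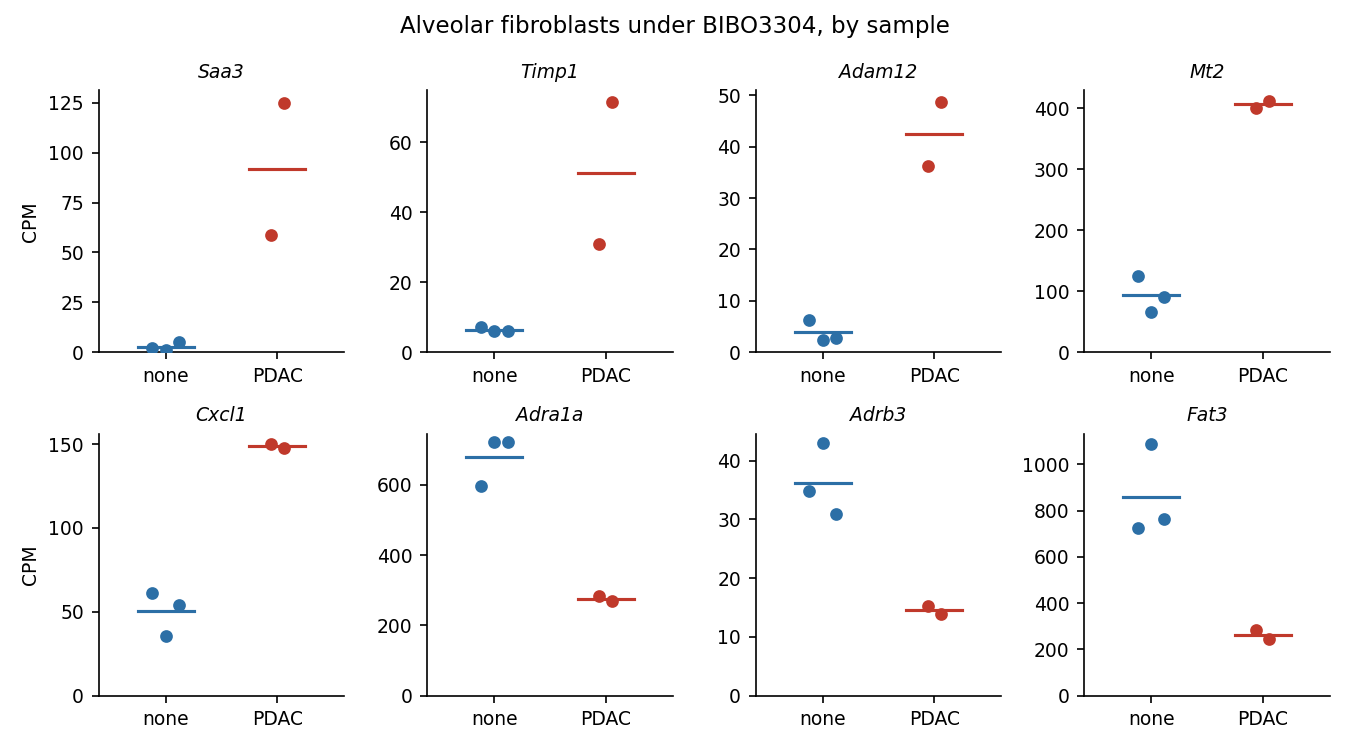
Level of 8 genes in alveolar fibroblasts (CPM, vertical axes from 0) in each sample without (none) and with PDAC cells; points are samples and bars are group means. Saa3, Timp1, Adam12, Mt2 and Cxcl1 are higher in both seeded samples than in all 3 others, and Adra1a, Adrb3 and Fat3 are lower in both.

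In monocytes, transcripts of macrophages, of antigen presentation and of protein folding were higher with PDAC cells. Mmp14 was at 61.4 and 60.7 CPM with PDAC cells against 1.75, 4.55 and 0 CPM (4.22 ± 0.59, adjusted p = 0.000316). Cd63, a tetraspanin of lysosomes and exosomes, was at 33.1 and 23.5 CPM against 1.75, 0.909 and 6.98 CPM (3.52 ± 0.64, adjusted p = 0.00159). Mrc1 was at 198 and 190 CPM against 62.9, 23.6 and 69.8 CPM (2.06 ± 0.39), the opposite direction to its fall in interstitial macrophages. These 3 were stable. C1qa, C1qb and C1qc also rose, and all 5 interstitial macrophage markers that could be tested in monocytes were higher. Monocyte markers summed to 1317 and 1554 CPM against 2493, 2607 and 1917 CPM, with 3 of 9 lower and 1 higher. After thinning to 1000 transcripts, 67.2% and 73.5% of monocytes had a monocyte marker transcript, against 89.1%, 90.1% and 83.7%. For interstitial macrophage markers the thinned shares of monocytes were 20.9% and 28.3% against 14.6%, 5.73% and 12.9%. In B cells they were 16.5% and 27.2% against 10.2%, 3.29% and 6.88%. The part of transcripts from other cell types in the rises in monocytes was not tested.

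Of 7 class II genes tested in monocytes 6 rose, and the class II transactivator Ciita was at 137 and 161 CPM against 38.5, 14.1 and 64.6 CPM (2.16 ± 0.41, adjusted p = 0.00196; without BIBO3304-PDAC sample 2, 0.0665). Of 13 unfolded protein response genes 7 rose, among them the chaperones Hsp90b1, at 617 and 650 CPM against 290, 257 and 361 CPM (1.08 ± 0.17), and Calr, at 579 and 398 CPM against 201, 197 and 269 CPM (1.14 ± 0.20), both stable. Cxcl9 was at 21.3 and 15.7 CPM against 0, 0.455 and 0 CPM (5.31 ± 1.07), 17 transcripts against 1 with a pooled ratio of 60.9 (counting interval 9.54 to 2545). Cxcl10 was at 40.2 and 41.1 CPM against 5.25, 2.27 and 8.73 CPM (3.21 ± 0.75). Both chemokine calls were lost without BIBO3304-PDAC sample 2 (adjusted p = 0.0542 and 0.113), and Cxcl10 also without BIBO3304 sample 2 (0.0787). Egr2, an early response transcription factor of macrophages, rose by 4.52 ± 0.82 (24 transcripts against 3, ratio 28.7, counting interval 8.70 to 149), a call lost without BIBO3304-PDAC sample 2 (0.171). L1cam, a neural adhesion molecule, was at 9.45 and 11.8 CPM against 68.2, 86.4 and 73.3 CPM (-2.83 ± 0.55, adjusted p = 0.00229; 0.0738 without that sample). Rhof, a small GTPase of filopodia, fell by 2.41 ± 0.55, and was lost without either seeded sample (0.0977 and 0.0600) or BIBO3304 sample 2 (0.0503). Sftpc, the surfactant protein of alveolar type 2 cells, was at 215 and 245 CPM in monocytes against 64.7, 24.1 and 83.8 CPM (2.17 ± 0.36, adjusted p = 0.000983). Type 2 cells held it at 16170 CPM. Over all types 14 of 132 tests of surfactant production genes were higher (10.6%) and 1 lower, and the list's median was above 0 in all 19. The source of Sftpc in monocytes was not tested.

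Neutrophils were few, 33 and 67 cells with PDAC cells and 87, 62 and 115 without. Over the 5 samples a list of mast cell and basophil markers was highest in this type (mean log2 level 3.90, next aerocytes at 1.48). The monocyte list stood at 5.99 in it, above the neutrophil list at 5.83. The part of other cell kinds under this label was not tested. Cd86, a costimulatory ligand for T cells, was at 536 and 638 CPM against 185, 225 and 178 CPM (1.58 ± 0.30, adjusted p = 0.00470; 0.0934 without BIBO3304-PDAC sample 2). Entpd1 (CD39), which breaks down extracellular ATP, was at 1520 and 1664 CPM against 3955, 3934 and 4194 CPM (-1.34 ± 0.30, adjusted p = 0.00939), and that call was lost without either seeded sample (0.0676 and 0.0738). The mitochondrial transcript mt-Co1 was at 304 and 225 CPM against 49.9, 45.9 and 49.9 CPM (2.41 ± 0.47, stable). Neutrophil markers summed to 1359 and 1603 CPM with PDAC cells and 4295, 4437 and 3605 CPM without, with 2 of 6 lower, and interstitial macrophage markers to 211 and 366 CPM against 73.3, 72.2 and 154 CPM. Their part in the rise of Cd74 and Cd86 was not tested.

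Alveolar type 2 cells gained Lcn2 and genes of the secretory pathway. Lcn2, lipocalin 2, an iron-sequestering protein of inflamed epithelium, was at 232 and 289 CPM with PDAC cells against 60.2, 82.0 and 70.8 CPM (1.85 ± 0.20, adjusted p = 7.76e-06). It was the only stable call in these cells. Of 13 unfolded protein response genes 9 rose and the list's median was 1.03. The chaperone Calr was at 387 and 515 CPM against 153, 152 and 230.2 CPM (1.33 ± 0.22), the disulfide isomerase Pdia6 rose by 1.25 ± 0.20 and Hspa5 (BiP) by 0.99 ± 0.22. Without BIBO3304-PDAC sample 2 these were not called (adjusted p = 0.204, 0.0996 and 0.280), and Hspa5 also without BIBO3304 sample 2 (0.0669). S100a4 was at 17.8 and 82.5 CPM against 2.48, 0 and 0.509 CPM (5.61 ± 0.80; 0.197 without BIBO3304-PDAC sample 2). Over all 19 types 38 of 215 tests of the unfolded protein response were higher (17.7%, against 2.44% of all gene tests).

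In general capillary cells 3 of 11 collagen genes rose and none fell. Over all genes of this type 3.04% were higher and 1.45% lower. Of 19 type I interferon response genes 2 fell, and of 23 interferon-gamma response genes 1 rose and 2 fell, so most members did not pass the test. Col18a1, the precursor of endostatin, was at 25.5 and 49.6 CPM with PDAC cells against 1.30, 2.22 and 6.42 CPM (3.37 ± 0.52), and Col15a1 at 58.2 and 81.7 CPM against 13.7, 14.05 and 4.28 CPM (2.64 ± 0.44, both adjusted p = 0.00662). Iigp1, an interferon-inducible GTPase, was at 210 and 172 CPM against 332, 499 and 802 CPM (-1.49 ± 0.35), and Slfn5, a schlafen protein, fell by 0.84 ± 0.19. Without BIBO3304-PDAC sample 2 none of the 4 was called (adjusted p = 0.196 to 0.368). Iigp1 and Slfn5 were also lost without BIBO3304 sample 2 (0.0511 and 0.0870), and Iigp1 without BIBO3304 sample 3 (0.0524).

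B cells of seeded lungs held more myeloid transcripts. Ccr2, the monocyte chemokine receptor, was at 80.0 and 176 CPM against 2.65, 2.08 and 6.08 CPM (5.12 ± 0.64, adjusted p = 0.000488; 0.0967 without BIBO3304-PDAC sample 2). Aif1, a macrophage actin-binding protein, rose by 5.27 ± 1.06 (33 transcripts against 1, ratio 61.1, counting interval 10.2 to 2484). That call was lost without BIBO3304-PDAC sample 2 (0.414) or BIBO3304 sample 2 (0.0664). Interstitial macrophage markers summed to 247 and 350 CPM in B cells with PDAC cells and to 86.0, 40.7 and 63.3 CPM without, and B cell markers to 3371 and 2501 CPM against 8180, 8937 and 5104 CPM. Their part in these rises was not tested. Hspa8, a constitutive chaperone, was at 548 and 554 CPM against 169, 181 and 298 CPM (1.36 ± 0.27; 0.196 without BIBO3304-PDAC sample 2, 0.0634 without BIBO3304 sample 2). In dendritic cells Bst2, an interferon-induced membrane protein of plasmacytoid dendritic cells, rose by 1.55 ± 0.34 and Mki67, a proliferation marker, fell by 1.19 ± 0.28 (both adjusted p = 0.0402). Neither call was kept under any of the 5 omissions (adjusted p = 0.0622 to 0.610).

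Ribosomal protein genes rose in nearly every type. Of 1146 tests of ribosomal protein genes 284 were higher (24.8%), in 17 of 19 types, and Rps12, a small subunit protein, was called in 16 types. In lymphatic endothelial cells Rps12 was at 879 and 2551 CPM against 212, 104 and 304 CPM (2.95 ± 0.44; adjusted p = 0.136 without BIBO3304-PDAC sample 2). Nuclear genes of oxidative phosphorylation were higher in 85 of 387 tests (22%). Over all gene tests 2.44% were higher. Ribosomal protein transcripts made up 0.537% and 0.977% of alveolar fibroblast transcripts with PDAC cells and 0.458%, 0.188% and 0.332% without. In all 19 types the share was highest in BIBO3304-PDAC sample 2 and lowest in BIBO3304 sample 2, the libraries with the fewest and the most transcripts per cell. Changes also differed by the length of the gene: over the 19 types the median log2 change was 0.46 for genes spanning under 10 kb, 0.04 from 10 to 50 kb, -0.14 from 50 to 200 kb and -0.19 above. Without both of those libraries the medians ran from 0.25 to -0.11. In interstitial macrophages the median above 200 kb was -0.59, with 31% of such genes lower and 1.26% higher. In alveolar fibroblasts it was -0.17, with 15.5% lower and 3.16% higher. The part of gene length in the falls named above was not tested. Depth and seeding cannot be told apart here. The falls of Mrc1, Apoe and C1qb and the rises of Mt2, Saa3 and Lcn2 were stable by the definition above. With both libraries left out the log2 changes were -1.87 for Mrc1 (adjusted p = 0.0282), -1.96 for Apoe (0.0282), -1.72 for C1qb (0.0375), 1.90 for fibroblast Mt2 (0.00212) and 1.80 for Lcn2 (0.000782), while Saa3 at 3.90 was no longer called (0.110).

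**Figure D5:**
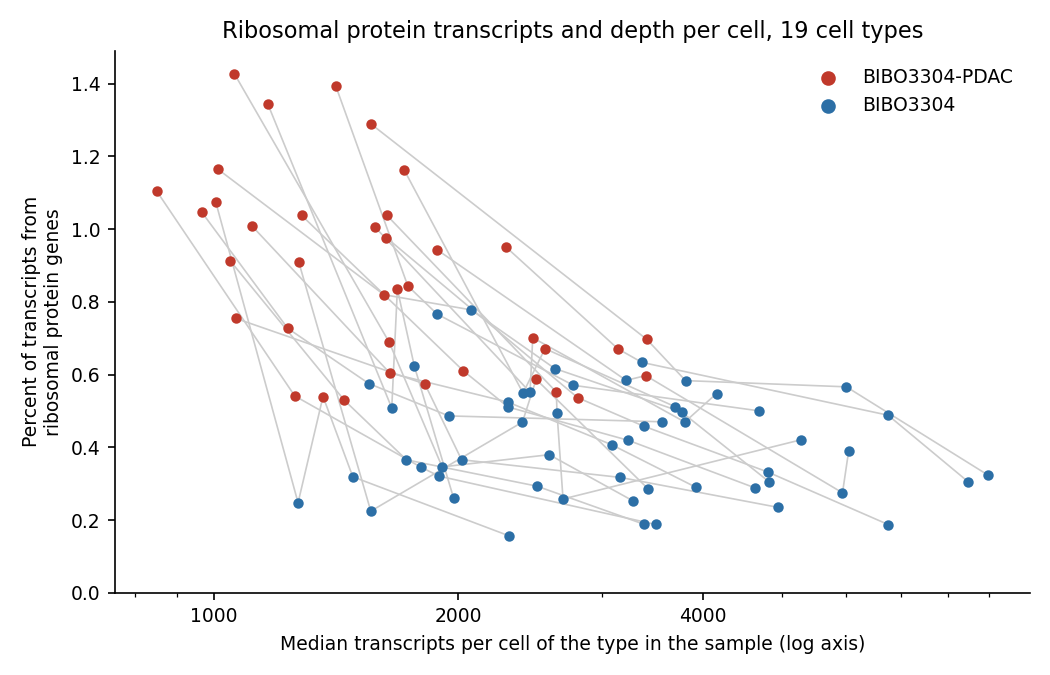
Percent of transcripts from ribosomal protein genes (vertical axis) against median transcripts per cell (horizontal log axis) for 19 cell types in the 5 BIBO3304 samples; lines join the samples of a type. Seeded samples (red) lie higher and mostly further left, and in all 19 types the 2 seeded samples are above the 3 others.

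The effect of PDAC cells was then set against the same effect under 6-OHDA and vehicle, estimated in the same fit from samples not shared with those above. Under 6-OHDA 784 of 107528 tests were called (0.729%), and under vehicle 2 of 113537 (0.00176%). In interstitial macrophages 407 genes were called under both BIBO3304 and 6-OHDA, which is 35.1% of the 1158 BIBO3304 calls and 68.5% of the 594 under 6-OHDA, and all 407 had the same sign. Of the BIBO3304 calls in these cells, 93.4% had the same sign under 6-OHDA, against 73.1% of all genes tested. Mrc1 fell by 2.34 under BIBO3304 and by 1.96 under 6-OHDA (adjusted p = 0.00047), and under vehicle its log2 change was -0.31 (adjusted p = 0.818). For Bmp2 the changes were -4.27, -3.86 and -0.79. In alveolar fibroblasts 82 genes were called under both, 6.53% of the BIBO3304 calls and 56.2% of those under 6-OHDA, with 1 sign each. Adam12 rose by 3.48 under BIBO3304 and by 4.17 under 6-OHDA (adjusted p = 1.11e-05), and its change under vehicle was 1.21.

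Tested directly, the effect under BIBO3304 differed from that under 6-OHDA in 2 of 107528 tests (0.00186%), with 9609 at an unadjusted p under 0.05 and 38 called by DESeq2. From vehicle it differed in 469 of 113537 (0.413%), of which 131 were in B cells, 95 in alveolar fibroblasts, 84 in type 2 cells and 68 in interstitial macrophages. One of the 2 seeded vehicle samples held 0 cells named cancer cells, and the 3 vehicle samples without seeding held 0.0132 to 0.0250% of them. Without that sample the number rose to 4285, and without BIBO3304-PDAC sample 2 it fell to 37. Depth per cell went the other way under vehicle, with medians of 3411 and 2411 transcripts in the seeded samples and 1807.5, 1640 and 1906 in the others. Under 6-OHDA they were 2559 and 2729 against 2223, 2078 and 2123. A difference from either treatment therefore cannot be told apart from one in depth. Among the genes named here, Mt2 in alveolar fibroblasts had the difference from vehicle with the smallest adjusted p (2.85 ± 0.31, adjusted p = 0.000372). Mt2 had a log2 change of -0.73 ± 0.22 with PDAC cells under vehicle and of 0.60 ± 0.21 under 6-OHDA, neither past the threshold. For Tet2, which oxidises methylcytosine, the change in type 2 cells was -1.16 ± 0.25 under BIBO3304 (25.5 and 26.7 CPM against 56.4, 58.2 and 60.1 CPM) and 0.76 under 6-OHDA. Its call under BIBO3304 was lost without either seeded sample (adjusted p = 0.0646 and 0.221).

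For cell shares, edgeR called none of the 22 differences from vehicle, though 5 passed 0.05 before adjustment. The rise of interstitial macrophages was 1.65 under BIBO3304, 1.76 under 6-OHDA and 0.52 under vehicle on the log2 scale. Alveolar macrophages did differ from 6-OHDA, where their share was 13.96% ± 0.46 (SD, n = 2) with PDAC cells and 22.3% ± 1.9 (n = 3) without, against 31.3% and 17.8% ± 1.9 (n = 3) under BIBO3304. The difference was 1.49 ± 0.27 (adjusted p = 0.00127), and it was kept without each of the 10 samples in turn. Under vehicle the corresponding shares were 37.6% ± 9.7 (n = 2) and 38.1% ± 3.8 (n = 3).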

How the data were processed

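Whole lungs were dissociated, sorted for live cells and profiled by split-pool single-cell RNA sequencing (Evercode), per the labels' protocols. The authors deposited a matrix of raw counts for 38003 genes, with each cell's sample, treatment, seeding status and cell subtype, and percentages of mitochondrial transcripts per cell as a percent column that was not used in any test. Per the submitters' processing notes, Seurat 5.3.0 was used with the mm39 mouse build. The aligner, the filters on cells and the treatment of doublets are not stated in the sources at hand, and no doublet caller was run. The 16 deposited entries are sublibraries that each hold many samples, so groups came from the deposited cell table.

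Raw counts were summed per sample and cell subtype, keeping sums of at least 20 cells and types with 2 such samples per group, which left out type 1, club and cancer cells. The edgeR 4.0.16 quasi-likelihood test (R 4.3.3, TMM scaling, filterByExpr) was fitted over all 15 samples in 6 groups, with Benjamini-Hochberg adjustment within each type over all its genes and a threshold of 0.05. Levels of genes by sample are TMM-scaled CPM, and sums of marker lists and levels over the 5 samples are CPM without TMM scaling. Cell numbers per type were tested the same way without TMM, adjusted over 22 types. Totals per sample ran from 10916216 to 26555562 transcripts, and counting intervals cover counting error only. On simulated data made from these samples, 4-fold changes were recovered for 85.6% of changed genes in alveolar fibroblasts (12146 genes) and 79.6% in interstitial macrophages (6090 genes), and 2-fold changes for 43.2% and 13.8%. Unchanged genes made up 6.06% and 5.21% of those calls. The simulation gave all samples of a type the same profile with independent noise, and so held no shift by depth or gene length. These percentages therefore do not give the share of false calls in the real data. Gene spans came from the GENCODE vM21 annotation by symbol. Alternatives were DESeq2 1.42.0, RLE scaling, no gene filter, a minimum of 50 cells, TMM scaling of the cell numbers, shares without alveolar macrophages, only the 5 samples, a replicate block, cells of 1000 to 4000 transcripts, leaving out each sample in turn and, added after seeing the data, leaving out the shallowest and deepest libraries together.

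The groups, gene lists and tests were chosen with earlier results of these data known. Named genes followed a written rule: in the 5 types with most calls the 4 largest rises and 4 largest falls at 20 CPM or more in the higher group, without predicted, ribosomal, mitochondrial and immune receptor variable genes; the 10 genes called the same way in most types; up to 3 members of each list by smallest p; NPY and adrenergic genes at 20 CPM or more; and the 5 smallest p-values of each difference between treatments. Chosen after their values were seen were, in interstitial macrophages, Adgre1, Ccr7, Cd163, Cd74, Cfb, Cxcl9, Cxcl10, Irf8, Maf, Mmp14, Plac8, Retnla and Spp1; in alveolar fibroblasts Arntl, Axin2, Igfbp4 and Npy1r; in monocytes Calr, Cxcl9, Cxcl10 and Mrc1; in neutrophils Cd74 and Entpd1; in type 2 cells Arntl, Hspa5 and Npas2; and in general capillary cells Col15a1 and Iigp1. Members of a list named only as risen or fallen, or with a log2 change alone, were also picked afterwards. Some genes that the rule names are not reported here.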

Additional observations from a re-analysis of the deposited data

Results flagged for a closer look

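Each result here was picked out because the effect of PDAC cells under BIBO3304 differed from that under another treatment by a test of the difference itself. Values are the log2 effect under BIBO3304 minus that under vehicle, with the adjusted p of the edgeR interaction and the number of fits, each without 1 of the 10 samples involved, that kept the call. One seeded vehicle sample held 0 cells named cancer cells, the 3 unseeded ones 0.0132 to 0.0250%, and the part of this in the differences was not tested.

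In alveolar fibroblasts the metallothioneins differed together, Mt2 by 2.85 (adjusted p = 0.000372) and Mt1 by 1.71 (0.0119), both in 10 of 10 fits, and Mt2 in adventitial fibroblasts by 2.57 (0.00984, 8 of 10). Clock genes differed in the opposite direction, Npas2 by -3.99 (0.00665, 10 of 10) and Arntl by -2.56 (0.0180, 6 of 10) in alveolar fibroblasts, Arntl by -3.42 in adventitial fibroblasts (0.00217, 10 of 10), and Npas2 by -2.99 (0.0198, 7 of 10) and Arntl by -2.53 (0.0241, 4 of 10) in type 2 cells. In the same order, the log2 effects under vehicle were 2.18, 1.44, 0.88, 1.47 and 1.04, none past the threshold. Those under BIBO3304 were -1.81, -1.12, -2.54, -1.52 and -1.49, and none of these calls was stable. Other alveolar fibroblast genes were Sash1, a scaffold protein, at -1.47 (0.00665, 10 of 10), Gna14 at -2.35 (0.0122, 8 of 10), S100a4 at 3.64 (0.0180, 8 of 10), Fat3 at -1.37 (0.0307, 7 of 10), Adra1a at -1.42 (0.0307, 6 of 10), Adam12 at 2.27 (0.0381, 4 of 10) and C4b at 0.96 (0.0433, 1 of 10).

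Interstitial macrophages gave Tenm4 at -4.32, Bmp2 at -3.48 and Ccr7 at 3.47 (each 0.0108), and Blnk at -2.665 (0.00485), all 4 in 9 of 10 fits. Apoe at -2.12 (0.0199) and Mrc1 at -2.03 (0.0217) held in 6 of 10, Acp5 at 3.68 (0.0399) and Cfb at 4.24 (0.0279) in 4 of 10, and Adgre1 at -2.18 (0.0282) in 3 of 10. B cells gave Ccr2 at 5.49 (0.0245) and Hspa8 at 1.98 (0.0288), each in 5 of 10. Monocytes gave Sftpc at 2.99 (0.0307, 7 of 10) and Egr2 at 4.76 (0.0451, 4 of 9), type 2 cells S100a4 at 5.38 (0.0385, 5 of 10), and alveolar macrophages Acss1, an acetyl-CoA synthetase, at 1.29 (0.0191, 5 of 10). For Acss1 the log2 effect was 0.61 under BIBO3304 (edgeR adjusted p = 0.0721) and -0.68 under vehicle (0.233), so neither was called.

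Against 6-OHDA, Tet2 in type 2 cells differed by -1.92 (0.0335, 2 of 10 fits) and Ccn1, a matricellular protein, in ciliated cells by 4.70 (0.00283, 8 of 10). The share of alveolar macrophages differed by 1.49 (0.00127, 10 of 10), with an effect under 6-OHDA of -0.68 (0.0245).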

How the results depend on the processing

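The 4830 genes changed with PDAC cells became 1086 with only cells of 1000 to 4000 transcripts and 176 without the shallowest and deepest libraries, an alternative chosen after seeing the data. Leaving out 1 sample gave 343 (without BIBO3304-PDAC replicate 2) to 5515 (without BIBO3304 replicate 3). Of the 4818 main calls tested without BIBO3304-PDAC replicate 2, 336 passed again and 4817 kept their sign. The 469 differences from vehicle became 2558 with no gene filter, 1114 by DESeq2, 113 in cells of 1000 to 4000 transcripts, and 37 (without BIBO3304-PDAC replicate 2) to 4285 (without vehicle-PDAC replicate 2) on leaving out 1 sample. The 2 differences from 6-OHDA became 685 with no gene filter, 38 by DESeq2, 1 each with a minimum of 50 cells, with the replicate block and with cells of 1000 to 4000 transcripts, and 1 (without BIBO3304 replicate 2) to 140 (without BIBO3304 replicate 3). The 7 cell shares became 3 when alveolar macrophages, 1 of the 7, were left out of the totals, 6 with TMM scaling of the cell numbers (2 lost and 1 gained), 1 without the shallowest and deepest libraries, and 3 to 8 on leaving out 1 sample. The 0 share differences from vehicle became at most 2, without vehicle-PDAC replicate 2. Beyond fewer samples or genes tested, the cause was not tested. Of 1260 values of 99 named genes under the alternatives 1069 kept their side of the threshold, 189 lost it, 2 gained it and 0 reversed, and of 98 share values 71 kept it, 21 lost it, 6 gained it and 0 reversed. The replicate block gave 4789 changed genes and 368 differences from vehicle. Samples with the same number did not deviate together (r = -0.165 for number 1 and -0.135 for number 2, across genes), and the labels give the number no meaning. The deviations of the 2 seeded samples from their mean mirror each other, so these 2 values are not independent. They cannot show whether samples were paired. As to depth, BIBO3304-PDAC replicate 2 is both the shallowest library and the one with most cancer cells.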
